A study of Rattus norvegicus with 56 samples.

Results

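The rat major histocompatibility complex is named RT1, and its genes were followed here in kidney tubules after ligation of a ureter. Every gene whose symbol begins with RT1- in the 30 min table was taken and carried to the 3 h table by its Ensembl identifier. This gave 31 genes of 32883, of which 21 belong to class I and 10 to class II. The tissue came from male Sprague-Dawley rats, an outbred stock, weighing 120 to 160 g. In the unilateral ureteral obstruction (UUO) arm a silk tie closed the left ureter, and the sham arm had the surgery without the tie. Cortical collecting duct (CCD) and cortical thick ascending limb (cTAL) were then microdissected at 30 min or at 3 h, which makes 8 groups of 4 numbered replicates. Each CCD number had 2 libraries and each cTAL number had 1, so 48 libraries were used, and 8 whole-kidney samples listed with them were not analysed here. The labels do not say how many tubules went into a library.

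Class I molecules sit on nearly all nucleated cells, pair with beta-2-microglobulin (B2m) and show peptides from inside the cell to cytotoxic T cells. RT1-A is the classical class I locus of the rat. The genes named CE lie in the class I C/E region, and the N, S, T24 and M genes are likewise non-classical class I genes, among which M3 in the mouse is known for presenting formylated peptides. Class II molecules are heterodimers of an alpha and a beta chain that show peptides from outside the cell to helper T cells, and they are known above all from dendritic cells, macrophages and B cells. RT1-Ba and RT1-Bb encode the chains of the B molecule, the counterpart of mouse I-A, while RT1-Da and RT1-Db1 encode those of the D molecule, the counterpart of mouse I-E. RT1-DMa and RT1-DMb form the editor that loads peptides onto class II, RT1-DOa and RT1-DOb form a modulator of that editor, and the invariant chain Cd74 escorts new class II molecules. In the kidney, inflamed tubule epithelium is known to carry class II molecules as well.

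All values are TPM, a gene's share of a library's transcripts after scaling by gene length, so levels can be set side by side between genes. Changes are differences of log2(TPM + 1), which understates the change of low genes, and come with their standard error (SE) from limma, a moderated linear model fitted over all genes at once. A gene is called when its Benjamini-Hochberg adjusted p over all genes tested is under 0.05. Means carry the SD over 4 replicates. Each time had its own table, so times were not compared. RT1 genes include near-identical copies, the reference genome comes from another strain than these outbred rats, and the reads are not stated to keep strand, so reads of close relatives or of an antisense partner could not be placed with certainty. In bulk samples such as these, fewer cells of a type and less RNA per cell cannot be told apart.

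The segments matched their labels. In the sham tubules 6 of 6 principal cell markers and 5 of 5 intercalated cell markers were called as higher in CCD than in cTAL at both times, and 5 of 5 thick ascending limb markers as lower. Some libraries stood apart all the same. At 3 h, 3 CCD libraries held over 5000 TPM of the thick ascending limb product uromodulin (Umod), namely library 2 of UUO replicate 4 and library 1 of sham replicates 1 and 3. The cTAL library of sham replicate 1 at 3 h held 361 TPM of the principal cell water channel Aqp2, against 0.34 to 4.34 TPM in the other cTAL sham libraries. At 30 min, library 2 of CCD UUO replicate 2 had 8744 genes at 1 TPM or more, the fewest of all 48. Fits without these libraries are given where stated, and the group sums, means and shares include them.

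Of the 31 RT1 genes, 20 reached 1 TPM in 4 or more of 8 replicates in all 4 comparisons of UUO with sham and were tested there, 14 of class I and 6 of class II. RT1-Ha passed in cTAL at 3 h only, and 10 genes, 7 of class I and 3 of class II, passed in none. Those 10 were low throughout, the highest value in any library being 3.9 TPM for RT1-S2, and RT1-M5 never exceeded 0.1 TPM. RT1-A2 was the most abundant class I gene at both times, averaging 95.2 TPM at 30 min and 281 TPM at 3 h. RT1-Da led class II. It made up 38.8% ± 10.3 of the summed class II TPM in CCD UUO at 3 h and 35.6% ± 3.86 in CCD sham, and 41.5% ± 2.72 in cTAL UUO against 46.9% ± 4.42 in cTAL sham (SD, n = 4). Single CCD sham libraries at 3 h ran from 14.7% to 55.8%, a range that the SD over replicates does not show.

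**Figure D1:**
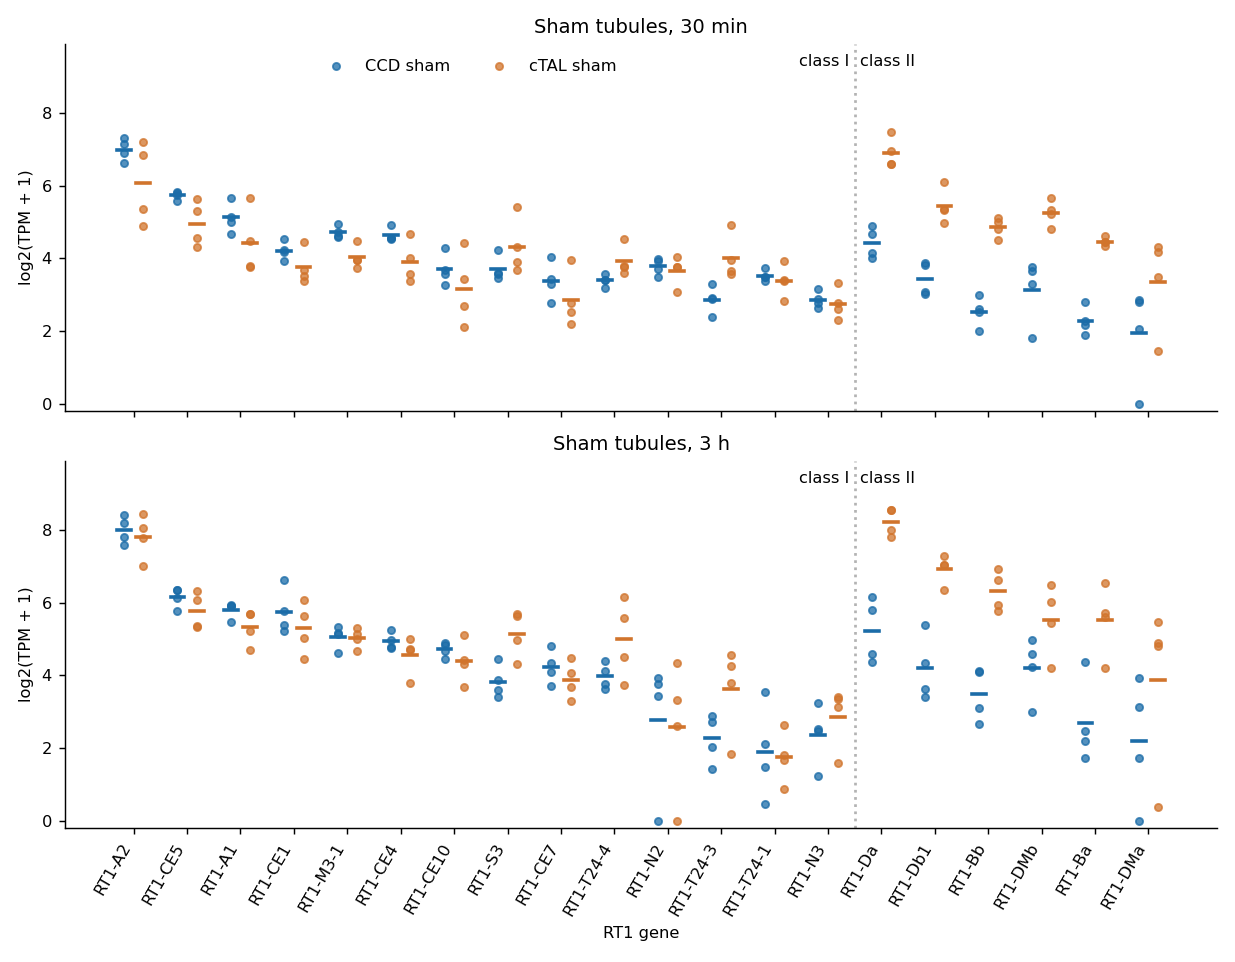
Level of the 20 RT1 genes tested in every UUO comparison, as log2(TPM + 1), in sham tubules at 30 min (top) and 3 h (bottom). Points are the 4 replicates of CCD (blue, left) and cTAL (orange, right), bars their means; the means of the class II genes right of the dotted line lie lower in CCD, with overlap for RT1-DMa at both times and for RT1-DMb and RT1-Ba at 3 h.

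The largest contrast lay between the segments and concerned class II. In sham tubules the class II genes at 30 min summed to 54.2 ± 17.0 TPM in CCD against 269.8 ± 66.4 TPM in cTAL (SD, n = 4). At 3 h the sums were 109 ± 66.4 TPM in CCD against 651 ± 117 TPM in cTAL. Class I sums were far closer, with 364 ± 61.0 TPM in CCD against 280.5 ± 142 TPM in cTAL at the early time and 606 ± 101 TPM in CCD against 579 ± 182 TPM in cTAL at the late time. Of 6 class II genes tested at 30 min 5 were called as lower in CCD and none as higher, where 11.5% of all genes were called as lower and 49.5% were called in either direction. At 3 h 5 of 7 were lower, against 10.1% of all genes as lower and 37.3% in either direction. The same counts came from values rescaled by median of ratios, with a median of all genes of -0.02 at 30 min and 0.02 at 3 h in place of 0.30 at both times. On that scale 2734 genes were higher and 2536 lower in CCD at 30 min, in place of 4424 and 1342, and 1508 were higher and 1748 lower at 3 h, in place of 2863 and 1060.

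RT1-Da, the alpha chain of the D molecule, had 15.1, 24.6, 16.7 and 28.6 TPM in CCD sham replicates 1 to 4 at 30 min, against 124, 95.6, 96.4 and 178 TPM in cTAL sham. Every CCD replicate lay below every cTAL replicate. limma gave a log2 difference of -2.55 (SE 0.26, adjusted p = 6.64e-05). At 3 h RT1-Da was at 54.8, 23.1, 70.9 and 19.8 TPM in CCD sham and at 257, 376, 225 and 376 TPM in cTAL sham, again without overlap (log2 difference -3.42, SE 0.30, limma adjusted p = 3.29e-05). Its partner RT1-Db1 followed the same order, with 7.09, 13.1, 7.46 and 13.5 TPM in CCD against 39.3, 40.4, 30.3 and 67.4 TPM in cTAL at 30 min, means of 20.4 ± 14.5 TPM in CCD against 125 ± 31.5 TPM in cTAL at 3 h, and with log2 differences of -2.06 and -2.97. The B molecule's chains were lower as well, RT1-Ba by log2 differences of -2.26 at 30 min and -3.12 at 3 h and RT1-Bb by -2.40 and -3.36. At 30 min RT1-Bb had at most 6.96 TPM in a CCD sham replicate, below the 31.1, 21.5, 27.0 and 33.8 TPM of cTAL sham. Of the peptide editor, RT1-DMb was called at both times (-2.54 and -2.32), whereas RT1-DMa had differences of -1.51 and -1.81 that did not pass (limma adjusted p = 0.129 and 0.261).

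The 4 chains of the B and D molecules share a sequence feature that the choice of genes did not use, and the 250 bases before their start sites are shown for that reason. Capitals mark the Y box CTGATTGG and, in RT1-Da, also the X box CCTAGCAAC, the elements through which class II promoters are known to be read. The sequences are RefSeq's, on build GRCr8, whereas the TPM were made on Rnor_6.0. They run 5′ to 3′ and lie at chr20:4515165-4515414 (plus strand) for RT1-Da, chr20:4576807-4577056 (plus strand) for RT1-Ba, chr20:4604119-4604368 (minus strand) for RT1-Bb and chr20:4560163-4560412 (minus strand) for RT1-Db1.
RT1-Da: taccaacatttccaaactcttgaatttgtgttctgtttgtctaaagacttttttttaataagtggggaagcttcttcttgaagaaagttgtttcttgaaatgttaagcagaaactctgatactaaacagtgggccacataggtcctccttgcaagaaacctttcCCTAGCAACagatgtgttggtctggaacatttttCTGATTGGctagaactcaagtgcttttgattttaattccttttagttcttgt
RT1-Ba: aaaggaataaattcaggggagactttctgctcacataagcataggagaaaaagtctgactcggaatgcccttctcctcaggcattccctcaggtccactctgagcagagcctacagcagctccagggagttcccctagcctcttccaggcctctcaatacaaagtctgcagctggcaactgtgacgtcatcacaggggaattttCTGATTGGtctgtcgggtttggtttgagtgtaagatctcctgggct
RT1-Bb: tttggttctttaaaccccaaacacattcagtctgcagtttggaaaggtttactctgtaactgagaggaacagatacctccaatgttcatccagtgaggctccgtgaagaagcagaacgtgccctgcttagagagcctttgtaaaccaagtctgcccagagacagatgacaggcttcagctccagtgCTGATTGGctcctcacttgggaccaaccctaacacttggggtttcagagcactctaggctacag
RT1-Db1: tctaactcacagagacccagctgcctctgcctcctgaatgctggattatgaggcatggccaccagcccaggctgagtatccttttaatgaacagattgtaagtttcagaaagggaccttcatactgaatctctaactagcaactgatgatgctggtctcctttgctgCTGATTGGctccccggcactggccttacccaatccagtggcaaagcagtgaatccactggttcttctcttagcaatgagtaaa
Of the 31 genes 27 had such an entry, 18 of class I and 9 of class II. The Y box, searched on both strands, was in 7 of the 9 class II windows, always on the gene's own strand, in 4 of the 18 class I windows, always on the other strand, and in 3.19% of all 33469 promoters of that length. The exact X box letters were in RT1-Da and RT1-DOb and in 0.654% of all promoters. RT1-Db1 did hold actagcaac, which departs from the X box letters in the first letter only. Such a match is a description of letters and not a bound site.

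Of 5 class II chaperone and processing genes 3 were called as higher and 2 as lower in CCD sham at 30 min, and 2 and 2 at 3 h. The invariant chain Cd74 was at 151 ± 41.3 TPM in CCD sham and 895 ± 278 TPM in cTAL sham at 30 min (log2 difference -2.61, limma adjusted p = 4.01e-05). At 3 h it averaged 282 ± 195 TPM in CCD sham against 1985 ± 366 TPM in cTAL sham (-3.47, adjusted p = 0.000116). Ciita, the class II transactivator, stayed low, with 0.0713 ± 0.0103 TPM in CCD sham against 0.748 ± 0.229 TPM in cTAL sham at the early time and 0.123 ± 0.122 TPM in CCD sham against 0.455 ± 0.426 TPM in cTAL sham at the late time, and was not tested.

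Macrophage markers ran the same way. In sham tubules 8 of 8 tested macrophage markers at 30 min and 7 of 7 at 3 h were lower in CCD, as were 5 of 5 and 4 of 4 pan-leukocyte markers, and their part in the class II difference was not tested. The 10 macrophage genes summed to 127 to 317 TPM per CCD sham library and 601 to 1921 TPM per cTAL sham library at 30 min, and to 70.8 to 387 TPM and 818 to 1548 TPM at 3 h. Cd163 was listed at 0 in all libraries at 3 h and stayed under 1 TPM at 30 min. Dendritic cell markers were near 0, the sum over 8 genes never passing 5.07 TPM in a sham library, and of the B cell markers Pax5 was listed at 0 in every library.

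Within CCD, class II followed the 3 libraries rich in Umod. They had summed class II TPM of 527 in UUO replicate 4 (library 2, Umod 18235 TPM) and of 175 and 325 in sham replicates 1 and 3 (library 1, Umod 6941 and 7957 TPM). The other 13 CCD libraries at 3 h lay between 33.6 and 102 TPM. Cd74 was at 1414, 773 and 808 TPM in these same 3 libraries. The macrophage genes summed to 342 TPM in that UUO library and to 109.9 and 387 TPM in those of sham replicates 1 and 3, against 70.8 to 318 TPM in the other 13. Among them C1qa was at 11.1 TPM in the UUO library and at 1.19 and 12.8 TPM in the sham libraries. The part of macrophage transcripts in the class II values of these libraries was not tested. Without the 3 libraries, a setting chosen after the data were seen, the segment difference in sham at 3 h was -4.18 for RT1-Da, -3.49 for RT1-Db1, -4.14 for RT1-Bb and -3.73 for RT1-Ba, all called, and RT1-DMb at -1.87 was no longer called (limma adjusted p = 0.0797).

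**Figure D2:**
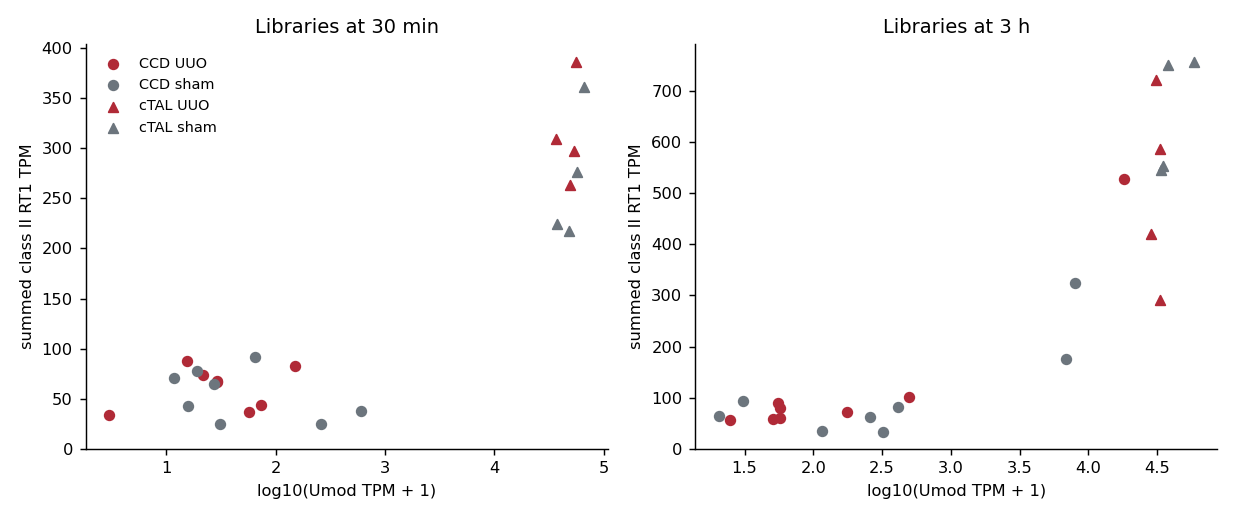
Summed TPM of the 10 class II RT1 genes per library against log10(Umod TPM + 1), at 30 min (left) and 3 h (right); circles are CCD and triangles cTAL, red UUO and grey sham. At 3 h the 3 CCD libraries above 5000 TPM of Umod have 175 to 527 TPM of class II, above the 33.6 to 102 TPM of the other 13.

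Class I genes did not share this order. At 30 min 3 of 14 were called as higher in CCD sham, where 38% of all genes were, and 1 as lower, where 11.5% were. Those higher were RT1-CE5, at 46.8, 55.2, 52.8 and 54.3 TPM in CCD and 22.4, 19.0, 38.4 and 48.4 TPM in cTAL (log2 difference 0.78, a call lost without any of the 4 CCD replicates or cTAL replicate 1 or 2), RT1-CE4 (0.72) and RT1-M3-1 (0.68), and the gene that was lower was RT1-T24-3 (-1.17, limma adjusted p = 0.0123). The share called as higher lies below that of all genes, and the directions depend on scaling, since after rescaling none was called as higher, against 23.5% of all genes, and 3 of 14 as lower, against 21.8%. The replicate numbers paired the 2 segments at 30 min, and with the number as a block 8 of 14 class I genes were called, adding RT1-A1 and RT1-A2 as higher and RT1-S3 and RT1-T24-4 as lower in CCD. That fit called 54.9% of all genes, so the share of class I genes lies near that of the whole table. At 3 h 1 of 14 was called, RT1-S3, at 13.8 ± 5.01 TPM in CCD against 37.1 ± 15.0 TPM in cTAL (log2 difference -1.37, SE 0.34, limma adjusted p = 0.0120), and none as higher, against 27.2% of all genes.

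After 30 min of obstruction no RT1 gene was called in either segment by limma. In CCD 0 of 14 class I and 0 of 6 class II genes were called, beside 0.0264% of all genes, and 3 class I genes and no class II gene had an unadjusted p under 0.05. In cTAL the counts were again 0 of 14 and 0 of 6, beside 0.0091% of all genes, with 1 class I gene and no class II gene at an unadjusted p under 0.05. The median log2 change of the class I genes in CCD was -0.51, against -0.31 over all genes. Below 0 lay 13 of these 14 genes, beside 9812 of all 11369. After rescaling the class I median was -0.20 with 12 of 14 below 0, against a median of -0.02 over all genes. The class II median was 0.19 in CCD and 0.29 in cTAL, and the class I median in cTAL was -0.04, against -0.07 over all genes. The class II values in CCD depended on scaling. They ran from -0.41 to 0.43, and after rescaling from -0.09 for RT1-DMb to 0.73 for RT1-Da.

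RT1-A2, the leading class I gene, had 37.04, 50.2, 101 and 133 TPM in CCD UUO at 30 min and 96.8, 117, 140 and 158 TPM in CCD sham. The arms overlapped, and the log2 change of -0.93 (SE 0.41) did not pass (limma adjusted p = 0.314). RT1-CE5 had 19.3, 26.1, 39.4 and 58.2 TPM in CCD UUO against the narrow sham range given above (log2 change -0.73, limma adjusted p = 0.316). The arms of RT1-T24-1 did not overlap in CCD at 30 min, with 2.31 to 8.95 TPM in CCD UUO and 9.43 to 12.4 TPM in CCD sham, and its change of -0.92 did not pass (limma adjusted p = 0.281). In cTAL it stood at 4.06 to 6.07 TPM in UUO and 6.06 to 14.3 TPM in sham (log2 change -0.88), where limma's adjusted p was 1.00. Without the CCD library of few genes, a setting chosen after the data were seen, no RT1 gene was called either. The replicate numbers paired the CCD arms at 30 min by the rule given below, but only weakly. Correlations were 0.122 to 0.219, and numbers 2 and 3 correlated best with another number. With the number as a block no RT1 gene was called there, beside 1 higher and 2 lower over all genes. RT1-A2 came nearest (SE 0.27, limma adjusted p = 0.111), followed by RT1-T24-1 (adjusted p = 0.135).

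**Figure D3:**
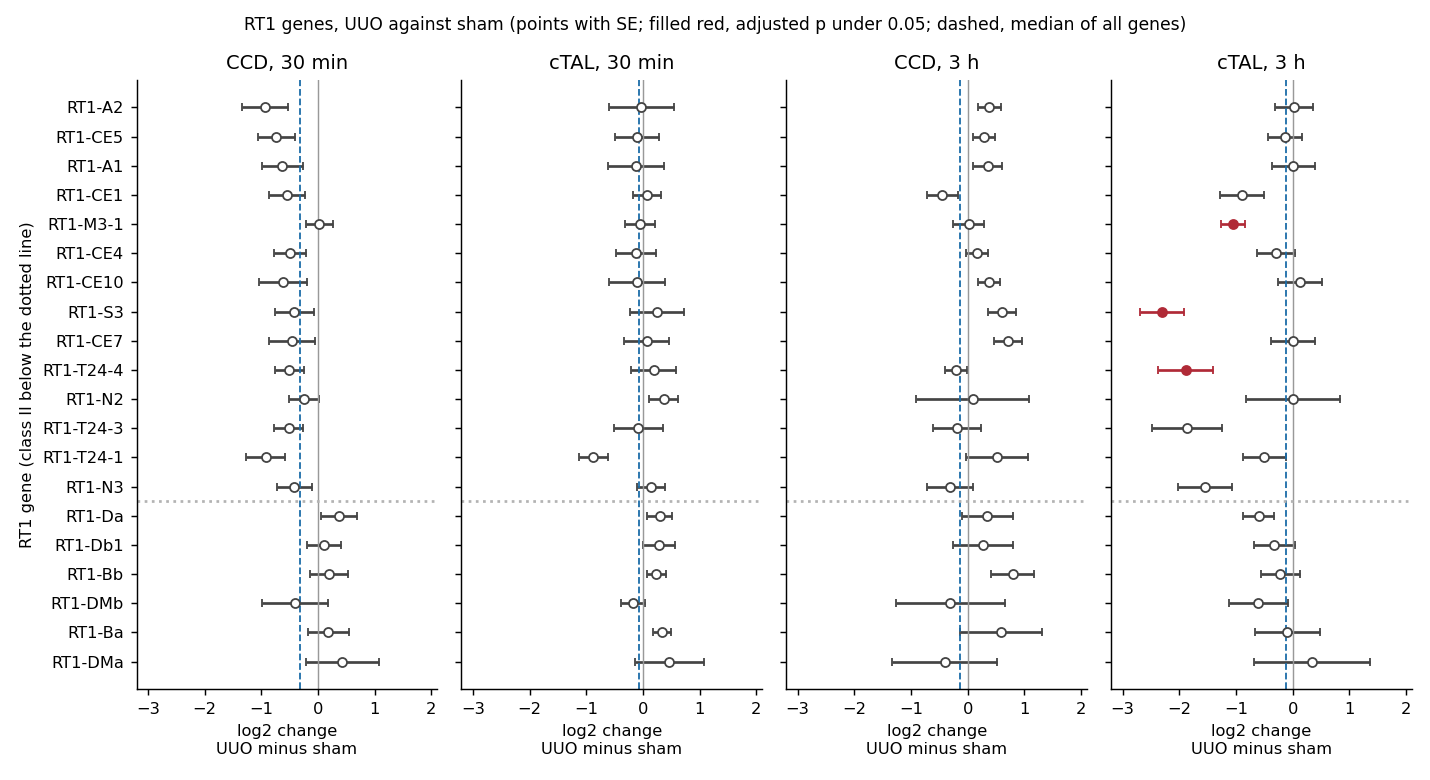
Log2 change of the 20 RT1 genes tested in every UUO comparison, UUO minus sham, in CCD and cTAL at 30 min and 3 h; bars are the SE from limma, filled red points are called, the dashed line is the median of all genes, and class II lies below the dotted line. The only red points are RT1-S3, RT1-M3-1 and RT1-T24-4 in cTAL at 3 h.

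After 3 h of obstruction 3 class I genes had fallen in cTAL: RT1-S3, RT1-M3-1 and RT1-T24-4. They were 3 of 14 class I genes tested, where 7.64% of all genes were called as lower and 11.7% in either direction, and 0 of 7 class II genes were called. The class I median was -0.40 against -0.12 over all genes, and 9 of 14 class I genes lay below 0, beside 5997 of all 10023. Rescaling by median of ratios gave 488 higher and 428 lower genes over the whole table, in place of 407 and 766, and a class I median of -0.29 with 8 of 14 below 0. Among the more abundant class I genes, the log2 change was 0.02 (SE 0.33) for RT1-A2, 0.01 (SE 0.38) for RT1-A1, -0.14 (SE 0.30) for RT1-CE5, which turned to 0.0029 after rescaling, and -0.90 (SE 0.39) for RT1-CE1, and none of these was called.

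RT1-S3 had 3.82, 4.20, 7.68 and 11.1 TPM in cTAL UUO, against 48.5, 50.3, 19.0 and 30.5 TPM in cTAL sham. Every obstructed replicate lay below every sham replicate. It was 4.97-fold lower on the log2(TPM + 1) scale (log2 change -2.31, SE 0.39, limma adjusted p = 0.00755), and the call held in all 8 fits without 1 replicate, with changes of -2.59 to -2.12. RT1-M3-1 had 14.2, 11.6, 16.1 and 17.7 TPM in cTAL UUO and 38.7, 34.4, 24.5 and 31.1 TPM in cTAL sham, again without overlap. Its change was -1.06 (SE 0.21, limma adjusted p = 0.0154), and the call was lost in 1 of 8 such fits, that without sham replicate 2 (adjusted p = 0.0522). RT1-T24-4 had 7.93, 5.05, 7.67 and 10.8 TPM in cTAL UUO and 70.7, 46.9, 12.3 and 21.9 TPM in cTAL sham. The arms did not overlap, but the sham values spread widely and the highest of them, replicate 1, is the library with Aqp2. The change of -1.89 (SE 0.48, limma adjusted p = 0.0332) lost its call in 6 of 8 such fits, those without any 1 of the UUO replicates or without sham replicate 1 or 2, with adjusted p of 0.0166 to 0.0911 over the 8. Without sham replicate 1 RT1-S3 and RT1-M3-1 were called (adjusted p = 0.0241 and 0.0407) and RT1-T24-4 was not (-1.50, adjusted p = 0.0657). On rescaled values RT1-S3 and RT1-M3-1 were called and RT1-T24-4 narrowly was not (-1.77, adjusted p = 0.0533).

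**Figure D4:**
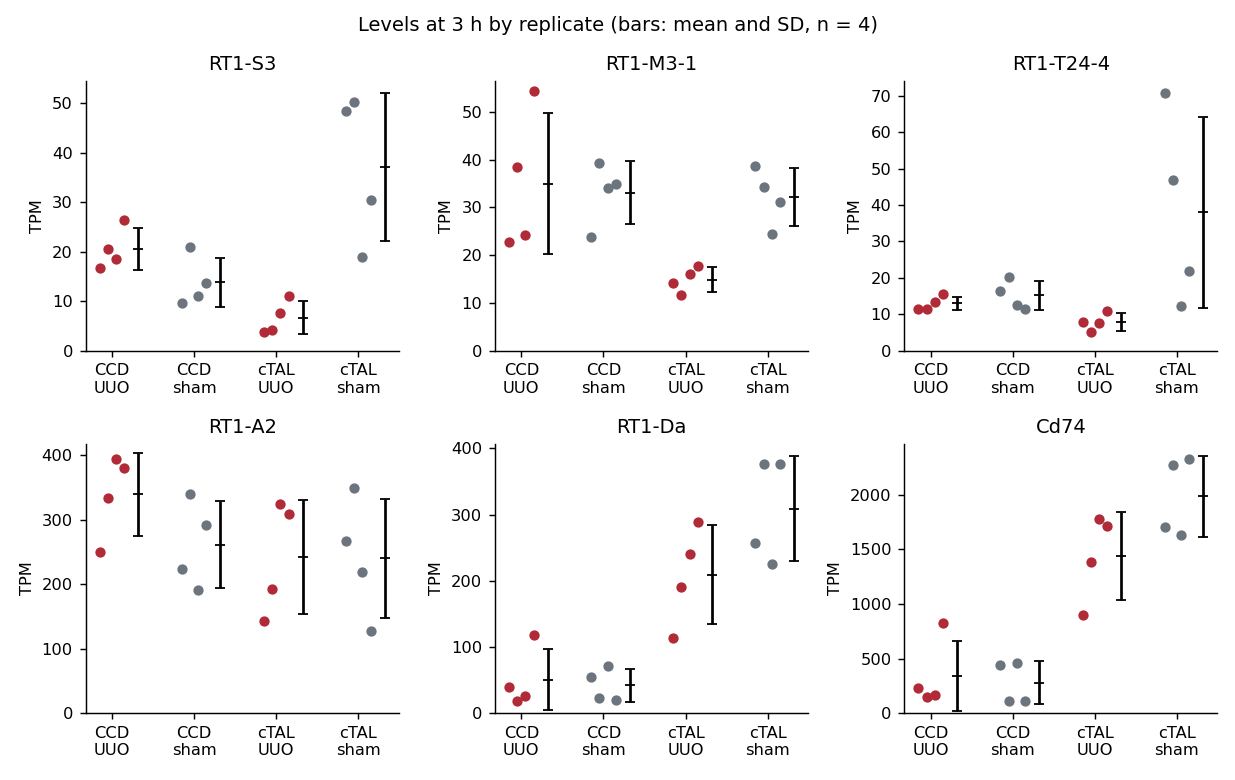
TPM at 3 h of RT1-S3, RT1-M3-1, RT1-T24-4, RT1-A2, RT1-Da and Cd74 in each replicate, UUO red and sham grey, with mean and SD (n = 4). The cTAL UUO replicates of the first 3 genes lie below all cTAL sham replicates, while RT1-A2 overlaps between all groups.

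RT1-T24-3 and RT1-N3 had changes of similar size in cTAL at 3 h that did not pass. RT1-T24-3 had 4.91, 0.55, 3.27 and 2.27 TPM in UUO and 2.55, 22.9, 12.8 and 18.3 TPM in sham (log2 change -1.87, limma adjusted p = 0.0752). RT1-N3 had 0.42, 3.03, 1.31 and 1.95 TPM in UUO and 1.99, 9.55, 7.80 and 9.26 TPM in sham (-1.55, adjusted p = 0.0600). RT1-CE1 had 10.6, 20.3, 32.03 and 23.4 TPM in UUO and 66.4, 48.3, 31.7 and 21.0 TPM in sham (-0.90, adjusted p = 0.167). RT1-A2 made up 52.6% ± 1.88 of the summed class I TPM in cTAL UUO and 40.7% ± 4.52 in cTAL sham.

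The promoters of the 3 called genes and of RT1-A2 are shown with their exact matches to elements through which class I promoters are known to be read. Capitals mark the Y box on the opposite strand (CCAATCAG), the interferon-response core TTTCACTTC and the kB core GGGATTCCC. They lie at chr20:2675278-2675527 (plus strand) for RT1-S3, chr20:1333367-1333616 (minus strand) for RT1-M3-1, chr20:2689083-2689332 (plus strand) for RT1-T24-4 and chr20:4872621-4872870 (plus strand) for RT1-A2, from the same RefSeq table.
RT1-S3: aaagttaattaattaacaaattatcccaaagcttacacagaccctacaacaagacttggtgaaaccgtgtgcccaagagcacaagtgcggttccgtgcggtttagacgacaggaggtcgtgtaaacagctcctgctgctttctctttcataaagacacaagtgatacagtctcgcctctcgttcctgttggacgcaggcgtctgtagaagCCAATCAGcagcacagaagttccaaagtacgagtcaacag
RT1-M3-1: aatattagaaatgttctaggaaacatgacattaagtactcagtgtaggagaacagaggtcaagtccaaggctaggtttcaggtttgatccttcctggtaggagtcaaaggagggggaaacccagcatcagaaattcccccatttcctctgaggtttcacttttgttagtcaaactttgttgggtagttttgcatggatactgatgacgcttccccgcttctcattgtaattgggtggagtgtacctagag
RT1-T24-4: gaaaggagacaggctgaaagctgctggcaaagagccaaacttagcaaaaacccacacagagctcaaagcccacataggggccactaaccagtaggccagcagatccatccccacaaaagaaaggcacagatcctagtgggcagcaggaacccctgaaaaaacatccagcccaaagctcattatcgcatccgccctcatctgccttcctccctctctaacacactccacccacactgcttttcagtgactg
RT1-A2: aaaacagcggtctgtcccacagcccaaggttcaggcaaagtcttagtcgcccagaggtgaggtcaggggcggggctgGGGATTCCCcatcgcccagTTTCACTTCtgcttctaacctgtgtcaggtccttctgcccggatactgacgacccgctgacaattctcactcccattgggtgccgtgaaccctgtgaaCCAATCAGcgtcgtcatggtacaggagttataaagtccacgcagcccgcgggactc
RT1-A2 held all 3 elements, RT1-S3 the Y box alone, and RT1-M3-1 and RT1-T24-4 none of these exact letters. RT1-M3-1 did hold tttcacttt, which departs from the interferon-response core in its last letter only. The windows of RT1-CE1, RT1-N2, RT1-N3, RT1-T24-1 and RT1-T24-3, which were not called, held none of the 3 either. Of these, RT1-T24-3 and RT1-N3 had changes in cTAL at 3 h of similar size to those of the called genes. Whether these letters go with a change was not tested. The interferon-response core was in 5 of 18 class I windows, those of RT1-A1, RT1-A2, RT1-CE3, RT1-CE5 and RT1-CE10, in no class II window and in 0.382% of all promoters. The kB core was in 4 class I windows, RT1-A1, RT1-A2, RT1-CE4 and RT1-CE10, in no class II window and in 0.272% of all promoters. Several class I windows are alike, with 82.2% identical positions between RT1-A2 and RT1-CE5 and 96.0% between RT1-M6-1 and RT1-M6-2, where the median pair of class I windows reached 48.9%.

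Class II was not called in cTAL at 3 h. RT1-Da had 114, 191, 241 and 289 TPM in cTAL UUO against 257, 376, 225 and 376 TPM in cTAL sham, so that the arms overlapped (log2 change -0.60, SE 0.28, limma adjusted p = 0.189). Cd74 averaged 1444 ± 403 TPM in cTAL UUO against 1985 ± 366 TPM in cTAL sham (-0.49, adjusted p = 0.166). RT1-Db1 had 58.6, 68.5, 104 and 208 TPM in UUO and 80.8, 131, 156 and 132 TPM in sham (-0.32). RT1-Bb had 35.8, 72.5, 104 and 75.8 TPM in UUO and 53.6, 121, 60.3 and 98.0 TPM in sham (-0.22). All of these arms overlapped. RT1-DMb had 28.8, 24.9, 68.7 and 15.2 TPM in UUO and 88.6, 42.4, 17.4 and 64.4 TPM in sham (-0.61), and the low RT1-Ha had a change of 0.78.

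Markers of other cells moved in the same comparison. In cTAL at 3 h 4 of 8 macrophage markers were called as lower, among them lysozyme Lyz2 averaging 211 ± 96.4 TPM in UUO against 787 ± 209 TPM in sham (-2.04), and all 8 had changes below 0. The macrophage genes summed to 127 to 492 TPM per UUO library and 818 to 1548 TPM per sham library. Of the pan-leukocyte markers 2 of 4 were lower, as were 3 of 5 endothelial markers, and 3 of 6 proximal tubule markers were higher. After rescaling 2 of 8 macrophage, 1 of 4 pan-leukocyte and 1 of 5 endothelial markers were called as lower. Their part in the fall of RT1-S3, RT1-M3-1 and RT1-T24-4 was not tested.

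CCD at 3 h gave another picture. None of the 14 class I or 6 class II genes was called by limma, where 13% of all genes were, and 2 class I genes and no class II gene had an unadjusted p under 0.05. The median change was 0.23 for class I, with 10 of 14 above 0, and 0.31 for class II, against -0.14 over all genes. Of all 10530 genes 3704 lay above 0. Rescaled values gave medians of 0.36 and 0.43 and 690 higher and 485 lower genes over the whole table, in place of 526 and 847. RT1-CE7 came nearest, with 30.5 ± 7.19 TPM in CCD UUO against 18.6 ± 6.31 TPM in CCD sham (a log2 change of 0.71, SE 0.24, adjusted p = 0.0836). RT1-A2 had 250.2, 334, 394 and 380 TPM in CCD UUO and 223, 340, 191 and 292 TPM in CCD sham, which overlapped (0.38, SE 0.20, adjusted p = 0.228). RT1-A1 had 47.4, 64.4, 66.3 and 124 TPM in UUO and 43.6, 59.5, 59.7 and 60.4 TPM in sham (0.35, adjusted p = 0.379).

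The class II changes of CCD at 3 h differed with and without the Umod-rich libraries, which lie in both arms. RT1-Da had 40.3, 19.1, 25.5 and 119 TPM in CCD UUO and 54.8, 23.1, 70.9 and 19.8 TPM in CCD sham (log2 change 0.35, SE 0.45, limma adjusted p = 0.644). RT1-Db1 had 20.7, 9.74, 10.02 and 79.5 TPM in CCD UUO and 19.5, 11.5, 41.1 and 9.61 TPM in CCD sham, and replicate 4 of UUO, which holds the library richest in Umod, was the highest for both genes. Without those libraries the change of RT1-Da was 0.77 (limma adjusted p = 0.0948) and that of RT1-Bb 1.19 (adjusted p = 0.0919), in place of 0.79. RT1-Ba moved from 0.59 to 0.98 and RT1-Db1 from 0.27 to 0.44. RT1-DMa moved from -0.40 to -0.48 and RT1-DMb from -0.31 to -0.88. No RT1 gene was called without those libraries. In the same comparison the complement genes C1qa, C1qb and C1qc rose among 7 macrophage markers, and Tyrobp rose among 4 pan-leukocyte markers. Red blood cell markers rose in 4 of 4 cases, with a median log2 change of 4.99, and 3 of 6 proximal tubule markers rose, while 5 of 6 principal cell markers fell (3 after rescaling). The part of these cells in the RT1 values was not tested.

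RT1-S3 was the RT1 gene whose response differed between the segments. In CCD at 3 h it had 16.8, 20.7, 18.5 and 26.4 TPM in UUO and 9.56, 20.9, 11.1 and 13.7 TPM in sham, a change of 0.61 (SE 0.25) that did not pass (limma adjusted p = 0.127). The difference between its change in CCD and that in cTAL was 2.92 on the log2 scale (SE 0.49, limma adjusted p = 0.0116), 1 of 14 class I genes called, where 0.739% of all genes were, and the call held in all 16 fits without 1 replicate (2.73 to 3.20). Without the Umod-rich libraries it was 2.71 (adjusted p = 0.00882). For RT1-T24-4 this difference was 1.68 and for RT1-M3-1 1.08, neither called (adjusted p = 0.214 each). Among the 14 class I genes all 14 differences were above 0, with a median of 0.58 against 0.01 over all genes. In the same test all 7 macrophage markers were above 0 as well (median 2.36, 2 called), as were all 4 pan-leukocyte markers (median 2.04, 1 called), and their part in the class I differences was not tested. At 30 min no RT1 gene was called in this test, nor was any of the 11194 genes (0%), of which 742 had an unadjusted p under 0.05.

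Genes of the presentation pathways outside RT1 gave few calls. Of 9 peptide loading and assembly genes none was called in any of the 4 comparisons of UUO with sham. At 3 h in CCD the peptide transporter Tap1 averaged 9.63 ± 5.59 TPM in UUO against 4.08 ± 1.55 TPM in sham (a log2 change of 0.99, limma adjusted p = 0.0956), and B2m, the light chain of class I, averaged 83.0 ± 21.7 TPM in UUO against 54.6 ± 12.1 TPM in sham (0.59, adjusted p = 0.0790). In cTAL B2m averaged 65.8 ± 15.1 TPM in UUO against 81.3 ± 21.0 TPM in sham (-0.29), and Tap1 had a change of -0.08. Of 5 immunoproteasome and activator genes Psme1, a subunit of the proteasome activator, was called as lower in cTAL at 3 h (-0.32), a call that rescaling removed, and there the immunoproteasome subunit Psmb9 had -0.74 (adjusted p = 0.0836), and none was called in the other 3 comparisons.

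Some upstream factors and interferon-stimulated genes did move at 3 h. Irf1, an interferon-regulated factor known to act on class I promoters, was at 98.3 ± 56.9 TPM in CCD UUO and 16.9 ± 2.94 TPM in CCD sham (log2 change 2.33, limma adjusted p = 0.00703), and at 44.9 ± 30.1 TPM in cTAL UUO and 7.75 ± 3.56 TPM in cTAL sham (2.20, adjusted p = 0.0225). It was the only one of 13 interferon signalling genes called in either segment. Of 10 interferon-stimulated genes 4 rose in CCD, namely Ifit3 (3.41), Cxcl10 (3.21), Ifit2 (2.90) and Cxcl11 (2.51), and none was called as lower. After rescaling 3 were called. The median of the 10 was -0.18, with 6 below 0, against -0.14 over all genes. In cTAL none of 11 was called by limma, 3 having an unadjusted p under 0.05. There 9 of the 11 had changes below 0, with a median of -0.86 against -0.12 over all genes. The largest rise was that of Cxcl11, with a log2 change of 2.80 (limma adjusted p = 0.0704). The difference between the segments was called for 1 of 11, Ifit2 (3.64, limma adjusted p = 0.0390), and for none after rescaling. The class I transactivator Nlrc5 averaged at most 0.0525 TPM in any 3 h group and was not tested. Rfxank, a subunit of the complex that binds the X box, fell in both segments, at 18.4 ± 4.04 TPM in CCD UUO and 31.5 ± 5.13 TPM in CCD sham (-0.75) and at 19.3 ± 3.16 TPM in cTAL UUO and 35.9 ± 0.497 TPM in cTAL sham (-0.88). Nfyb, a subunit of the Y box factor NF-Y, rose in cTAL to 50.2 ± 14.2 TPM in UUO, against 17.9 ± 0.774 TPM in sham (1.39, adjusted p = 0.00502).

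Processing of antigen and related surface molecules made up the rest. Of 5 class II chaperone and processing genes Ctss, the protease that trims the invariant chain, rose in CCD at 3 h (1.01, limma adjusted p = 0.0189), as did Ctsl (0.50), which also rose in cTAL (0.71). The co-stimulatory ligand Cd86 fell in CCD (-0.57), and after rescaling it was no longer called. Azgp1, a class I-like secreted protein, averaged 4.80 ± 3.51 TPM in cTAL UUO against 0.120 ± 0.240 TPM in cTAL sham. It passed the filter on low values through the UUO replicates alone, so its call is not counted here. At 30 min none of these lists held a called gene in either segment.

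Some class I genes varied more between replicate numbers than between the 2 libraries of a number. Over the CCD libraries at 3 h the SD between numbers was a median of 1.73 times that between libraries of 1 number for 14 class I genes, and 0.79 times for 6 class II genes, and at 30 min the medians were 1.18 and 0.97. Of the genes called in cTAL at 3 h, the CCD ratio at that time was 2.36 for RT1-M3-1, 0.91 for RT1-S3 and 0.69 for RT1-T24-4. The SD between numbers was taken over means of 2 libraries, and that between libraries over single ones. Without any effect of number this ratio is expected under 1, so a value under 1 does not mean that numbers varied less. The genes described next were chosen after their values were seen. RT1-N2 was listed at 0 in both CCD libraries and in the cTAL library of sham 1 at 3 h, and was at 0.36 and 0.25 TPM in CCD and 1.33 TPM in cTAL of UUO 4, while every other library of that time held 4.21 to 19.9 TPM. RT1-CE1 was highest in sham 1 in both segments, at 86.8 and 110.2 TPM in CCD and 66.4 TPM in cTAL. Among the sham libraries RT1-T24-1 was highest in sham 3, at 9.03 and 12.2 TPM in CCD and 5.18 TPM in cTAL, and was at 0.51 and 0.23 TPM in CCD and 0.84 TPM in cTAL of sham 1. Low and high values thus went with a number in libraries made from different segments.

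**Figure D5:**
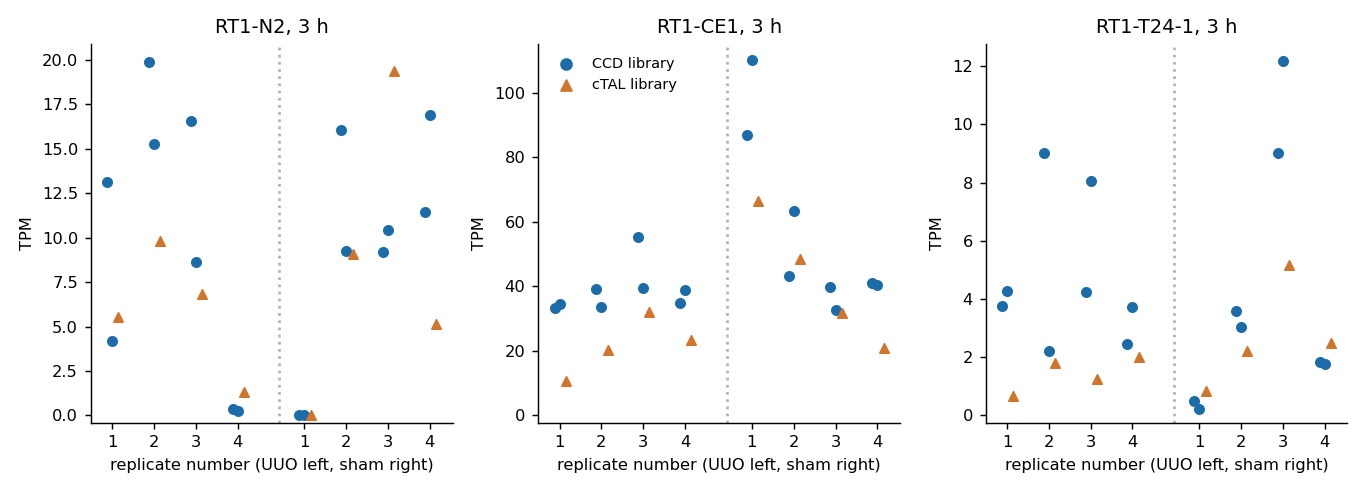
TPM of RT1-N2, RT1-CE1 and RT1-T24-1 at 3 h by replicate number, UUO left and sham right of the dotted line; circles are the 2 CCD libraries of a number and triangles its cTAL library. RT1-N2 is at 0 in all 3 libraries of sham 1 and at most 1.33 TPM in those of UUO 4.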

How the data were processed

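RNA of microdissected tubules was made into cDNA with the SMARTer V4 kit and into libraries with Nextera XT, per the labels' protocols. The authors deposited TPM values in 2 tables, split by time. The submitters' processing notes name STAR 2.7.3, RSEM 1.3.3 and build Rnor_6.0. Because TPM drops the read number, sequencing depth is unknown and counting error has no interval here. From the deposited TPM, log2(TPM + 1) was computed then averaged over both CCD libraries of each number. Genes that reached 1 TPM in 4 or more of 8 replicates were fitted with limma 3.58.1 (trend, R 4.3.3, with data.table in version 1.17.8), separately for each time and comparison, and p-values were adjusted by Benjamini-Hochberg over all genes tested. The segment difference was the interaction of segment and arm over all 4 groups of a time, where genes needed 1 TPM in the same share of the replicates. The fit was checked on simulated data. Figures and descriptions used Python 3.11.15 and matplotlib 3.10.9.

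The RT1 genes and the pathway and marker lists were chosen with earlier results of these data known. By the rule for naming, replicate values were given for RT1 genes called between arms and for the 4 genes of each class with the highest mean TPM, and from the pathway lists up to 4 called genes per list and comparison were named, with B2m, Tap1, Psmb9, Nlrc5, Cd74 and Ciita always. Other RT1 genes given with values were picked after their values were seen. The labels do not say which numbered samples share an animal, so p-values measure the spread between numbered samples. Same-numbered samples deviated together between segments (correlations of 0.0467 to 0.585, 15 of 16 over 0.1), and between arms far less (-0.261 to 0.219, 7 of 16 over 0.1). By the rule that every pair exceed 0.1, numbers paired the CCD arms at 30 min, the sham segments at 30 min and the UUO segments at both times, the last of which were not compared here. Alternatives were another pseudocount (0.1), no filter, median-of-ratios rescaling, the number as a block, either CCD library alone and leaving out each replicate.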

Additional observations from a re-analysis of the deposited data

Results flagged for a closer look

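Among 176 groups of 4 replicates, 8 held a replicate far from the other 3 of its group, where chance gives about 1 in 20, or 9. RT1-CE4 was at 28.9 TPM in CCD sham replicate 4 at 30 min, against 22.1 to 22.8 TPM in the others, and at 10.2 TPM in cTAL UUO replicate 1 at 3 h, against 21.1 to 23.4 TPM. RT1-CE5 was at 13.3 TPM in cTAL UUO replicate 1 at 30 min, against 32.7 to 39.1 TPM. RT1-N2 was listed at 0 TPM and RT1-A1 was at 43.6 TPM in CCD sham replicate 1 at 3 h, against 9.82 to 14.2 TPM and 59.5 to 60.4 TPM in the other replicates. RT1-N3 was at 4.95 TPM in CCD UUO replicate 2 at 3 h, against 2.80 to 3.10 TPM, and at 1.99 TPM in cTAL sham replicate 1, against 7.80 to 9.55 TPM. RT1-DMa was at 0.29 TPM in cTAL sham replicate 3 at 3 h, against 27.1 to 43.3 TPM. The response of RT1-S3 at 3 h differed between the segments by 2.92 on the log2 scale in limma's interaction test.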

How the results depend on the processing

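Depth is unknown for TPM, and 4 replicates limit the precision. Over the single-gene results 422 alternatives kept direction and side of the threshold, 23 kept only the direction and 9 turned it. In the CCD UUO comparison at 30 min, library 1 alone gave 956 calls and library 2 alone 1, against 3. There RT1-M3-1 turned to -0.0015 and RT1-DMb to 0.50 with library 2 alone, and RT1-Bb to -0.14 with library 1 alone. In CCD at 3 h the calls numbered 852 without a filter, 676 with library 1 alone and 490 with library 2 alone, against 1373, and with library 1 alone RT1-Bb, RT1-Da and RT1-Db1 turned to -0.10, -0.84 and -0.84. In cTAL at 3 h there were 760 without a filter, against 1173. Rescaling turned RT1-M3-1 and RT1-A2 in cTAL at 30 min to 0.026 and 0.059 and RT1-CE5 in cTAL at 3 h to 0.0029. The segment difference gave 1 call at 30 min with a pseudocount of 0.1 or no filter and 324 with library 1 alone, against 0, and 43 at 3 h with library 2 alone, against 76. The cause of these moves was not tested.

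With the replicate number as a block the calls were 770 in CCD at 3 h, 580 in cTAL at 3 h and 119 for the segment difference at 3 h. The class I genes called under the block were 2 in cTAL at 3 h, RT1-S3 (adjusted p = 0.0365) and RT1-N3 (0.0390), while RT1-M3-1 (0.0525) and RT1-T24-4 (0.0610) were not, and 3 and 8 between the sham segments at 3 h and 30 min. The numbers do not pair the arms at 3 h.

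Leaving out 1 replicate gave 1 to 2 calls in CCD and 0 to 1 in cTAL at 30 min, 458 to 1596 in CCD and 439 to 988 in cTAL at 3 h, 4305 to 5345 and 2576 to 3792 between sham segments at 30 min and 3 h, and 0 to 1 and 22 to 103 for the segment difference. Class I calls ranged over 1 to 4 in cTAL at 3 h, and over 2 to 9 and 1 to 2 between sham segments, and class II calls there over 5 to 6 at both times.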
